A study of Mus musculus with 6 samples.

Results

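Prss35, Pi15, Mgp, Slc26a7 and Grin3a were selected on their measured null minus wild type differences, which rank among the 19 largest rises in mouse embryonic kidneys labelled Foxd1 null, out of 19938 genes measured. Their close relatives Prss23, Crispld1 and Crispld2 were set beside them by kinship, not by value, which makes 8 genes in all. Each of the 8 was read from its only row of the array with a single gene symbol, so no second row was there to check it. RNA came from whole kidneys at embryonic day E14.5, from 3 litters of crosses between Foxd1 heterozygotes. There were 3 pools labelled Foxd1 null and 3 pools of wild type littermates, each of 2 kidney pairs from different litters, measured on 1 array per pool. Embryo sex is not known, and with 3 litters and 2 per pool, any 2 pools have a litter in common and are therefore only partly independent.

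Foxd1 encodes a forkhead transcription factor of the stromal progenitors, from which the interstitial cells, pericytes and mesangial cells of the kidney arise. The genes described here make a mixed group. Prss35 and Prss23 belong to the trypsin-like secreted proteins, and Prss35 is classed as an inactive protease because its catalytic serine is replaced. Pi15, Crispld1 and Crispld2 are secreted proteins with the cysteine-rich CAP domain, and Pi15 was named as an inhibitor of trypsin. Mgp, matrix Gla protein, is a small vitamin K-dependent matrix protein that keeps arteries and cartilage from calcifying and binds bone morphogenetic proteins. Slc26a7 is an anion transporter known in the adult kidney from intercalated cells of the collecting duct. Grin3a is a glycine-binding subunit of NMDA-type glutamate receptors, best known from developing neurons.

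The promoter windows of Prss35 and of its relative Prss23 are shown because the rows of these 2 genes differed so much in their change. They are RefSeq windows of 300 bases on the mouse assembly GRCm38.p6, 250 before and 50 after a transcript start, written on the gene's strand. The Prss35 window is chr9:86743383-86743682 on the plus strand, at a start inside the gene's RefSeq span and not at its outer end, and the Prss23 window, at the outermost of its 7 annotated starts, is chr7:89527138-89527437 on the minus strand. Capitals mark a match to the GC box GGGCGG on either strand.
Prss35: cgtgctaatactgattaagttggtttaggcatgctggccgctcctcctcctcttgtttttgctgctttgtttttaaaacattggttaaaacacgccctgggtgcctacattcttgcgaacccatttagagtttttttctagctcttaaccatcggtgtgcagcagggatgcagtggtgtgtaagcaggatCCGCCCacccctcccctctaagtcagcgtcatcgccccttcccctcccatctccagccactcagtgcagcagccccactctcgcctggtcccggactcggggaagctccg
Prss23: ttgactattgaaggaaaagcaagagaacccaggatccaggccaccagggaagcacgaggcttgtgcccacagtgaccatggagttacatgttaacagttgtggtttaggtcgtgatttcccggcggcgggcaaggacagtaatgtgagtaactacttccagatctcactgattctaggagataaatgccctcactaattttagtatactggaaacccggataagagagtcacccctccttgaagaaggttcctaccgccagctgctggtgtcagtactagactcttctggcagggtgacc
The Prss35 window held 1 GC box. Of the 7 Prss23 windows 3 held 0, the one shown among them, 1 held 1 and 3 held 3 each, and the Crispld2 window held 0. The 3 Prss23 windows with 3 each overlap, and their boxes are the same 3 sites. Of all 32851 windows of this length, 35.7% held a GC box. Both strands of each window were searched for the forkhead core TAAACA, for the longer GTAAACA that contains it, for the TATA box TATAAA and for the CArG box. None of the 4 was found in the Prss35 window, in the single Crispld2 window or in any of the 7 Prss23 windows, which says only that these letters are not there. Over all windows the shares that held them were 13.4%, 3.65%, 13.6% and 1.63%, in the order named. The Prss35 window held 12 CpG dinucleotides and was 54.0% G and C. The Prss23 windows ran from 4 to 41 CpG and from 49.7% to 78.3% G and C.

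Levels are the deposited log2 values, on which 1 unit is a doubling of signal. A difference is the null-labelled mean less the wild type mean, given with the standard error (SE) of a linear model over all genes. A gene passed the threshold when its limma adjusted p was under 0.05. In all, 326 of 19938 genes (1.64%) passed as higher in the null-labelled pools and 153 (0.767%) as lower. Every null-labelled pool lay above every wild type pool in 11.5% of all genes, and below in 8.04%. An unadjusted limma p under 0.05 was found in 2811 genes (14.1%). The Foxd1 row itself was not lower in the null-labelled pools, at 10.05, 9.77 and 9.71 in null-labelled pools 1, 2 and 3 against 9.40, 9.55 and 9.69 in wild type pools 1, 2 and 3. Its difference was 0.30 (SE 0.11, limma adjusted p = 0.246), and the labels leave unstated what the allele removes, so directions rest on the labels of the pools. The kidney genes Six2, Pax2 and Wt1 stood at 8.76 or above as a mean of either group. Ret and Lhx1, also checked as kidney genes, stood lower. Ret had means of 7.998 in the null-labelled and 7.657 in the wild type pools, and Lhx1 of 7.079 and 8.257. Lhx1 passed the threshold as lower (difference -1.178, SE 0.083, limma adjusted p = 0.0003165). Wt1 did so too (difference -0.336, SE 0.072, limma adjusted p = 0.0444), while Six2, Pax2 and Ret did not pass. The median of each array lay between 6.984 and 7.057.

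Prss35 showed the largest rise of the 19938 genes. Its level was 8.78, 9.06 and 9.52 in null-labelled pools 1, 2 and 3, against 6.76, 6.88 and 7.13 in wild type pools 1, 2 and 3. Its lowest null-labelled pool stood 1.65 above the highest wild type pool. The means were 9.12 ± 0.37 in the null-labelled pools and 6.92 ± 0.19 in the wild type pools (SD, n = 3 each), a log2 difference of 2.198 (SE 0.17), which is 4.59-fold. No p-value is given for this or for the other 4 rises, since the same comparison chose them. In whole-kidney RNA, more cells of a type and more RNA per cell cannot be told apart, and neither can fewer cells and less RNA per cell. Null-labelled pool 3, where Prss35, Pi15, Slc26a7 and Grin3a but not Mgp were highest, also had the highest sums of liver and adrenal marker levels. Without that pool the Prss35 difference was 2.00, and it was up to 2.37 when any other single pool was left out.

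Prss23, a secreted protease, showed no such rise. Its level was 8.17, 8.10 and 8.40 in null-labelled pools 1, 2 and 3, against 8.33, 8.18 and 8.13 in wild type pools 1, 2 and 3. Values of both groups overlapped, and the log2 difference of 0.01 (SE 0.10, limma adjusted p = 0.983) had a 95% interval of -0.21 to 0.23. Its sign turned in 6 of the 14 alternative analyses, quantile normalization and median centring among them. Of the 36 other genes named Prss followed by a number, 0 passed the limma threshold in either direction, where 2.4% of all genes did, and 3 had an unadjusted p under 0.05, where 14.1% of all genes did. Their median difference was -0.02 against 0.01 over all genes tested, and they ran from -0.31 for Prss8 to 0.19 for Prss34. Mean levels of the 36 ran from 4.31 for Prss3 to 8.40 for Prss48, most of them below the lowest array median of 6.984. Prss48 and Prss27, named by their row level, had differences of -0.14 (SE 0.11) and -0.03 (SE 0.08).

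**Figure D1:**
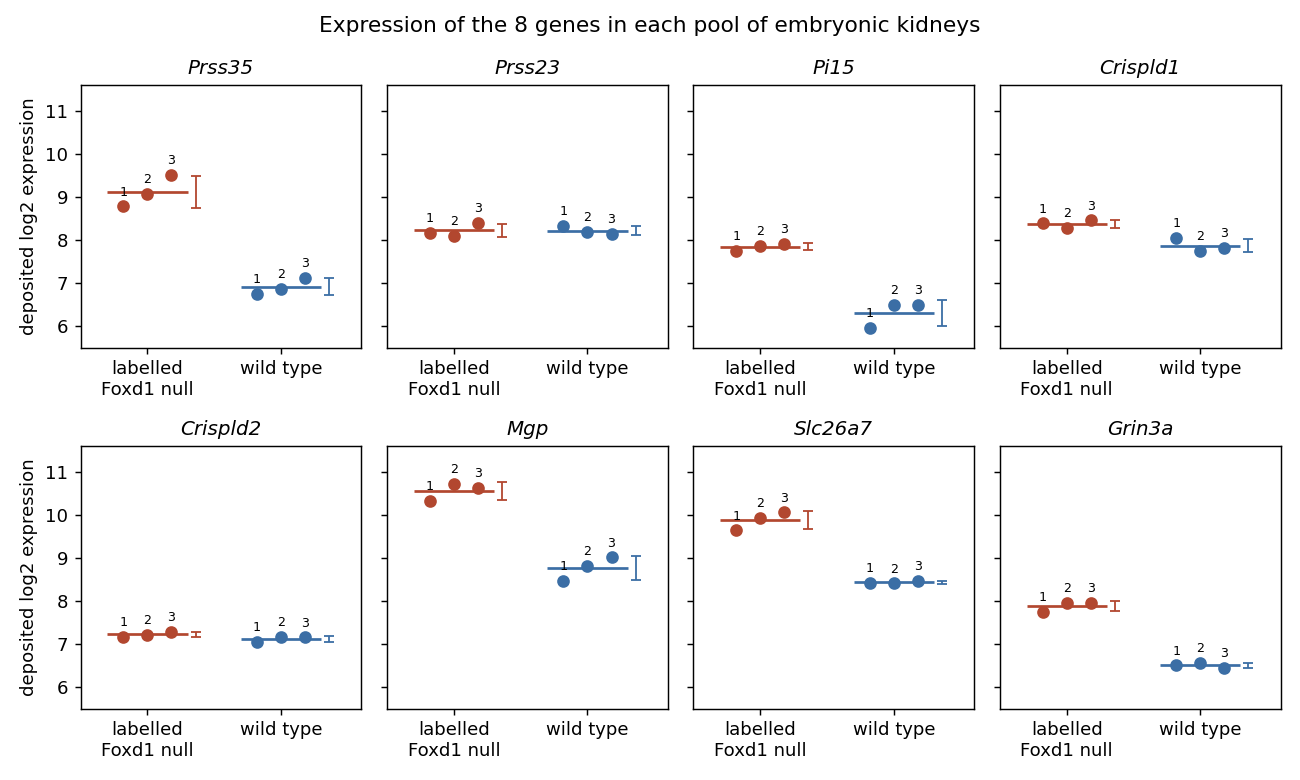
Deposited log2 expression (vertical axis, 1 unit is a doubling) of each of the 8 genes in the pools labelled Foxd1 null (red) and wild type (blue). Points are pools with their numbers, lines are group means and bars are SD over n = 3; in Prss35, Pi15, Mgp, Slc26a7 and Grin3a the lowest null-labelled pool stands at least 1.17 above the highest wild type pool, while the Prss23 groups overlap.

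Pi15 stood at 7.76, 7.87 and 7.91 in null-labelled pools 1, 2 and 3, against 5.96, 6.49 and 6.49 in wild type pools 1, 2 and 3. Null-labelled pools lay within 0.15 of each other, while wild type pool 1 was low, so that the wild type pools spread over 0.53. The means were 7.85 ± 0.08 in the null-labelled and 6.31 ± 0.30 in the wild type pools (SD, n = 3 each), a log2 difference of 1.53 (SE 0.13), or 2.89-fold. Without wild type pool 1 the difference was 1.36.

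Crispld1, which carries a CAP domain and LCCL domains, rose as well. It was at 8.39, 8.29 and 8.46 in null-labelled pools 1, 2 and 3, against 8.05, 7.75 and 7.82 in wild type pools 1, 2 and 3, with no overlap. Its log2 difference was 0.50 (SE 0.09, 1.42-fold, limma adjusted p = 0.0245). The call did not survive leaving out null-labelled pool 2 (adjusted p = 0.0608), null-labelled pool 3 (0.0819), wild type pool 2 (0.112) or wild type pool 3 (0.085), nor testing every row instead of 1 per gene (0.13). Crispld2, the third of these relatives, was at 7.17, 7.20 and 7.29 in null-labelled pools 1, 2 and 3, against 7.04, 7.17 and 7.15 in wild type pools 1, 2 and 3. Both groups were separated by only 0.002, and the difference of 0.10 (SE 0.07, limma adjusted p = 0.624) had a 95% interval of -0.07 to 0.27.

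Of 10 further measured genes of the CAP superfamily 0 rose and 1 fell, against 1.64% and 0.767% of all genes. The one that fell was Clec18a, a lectin with a CAP domain. Clec18a was at 7.76, 7.84 and 7.79 in null-labelled pools 1, 2 and 3, against 8.28, 8.30 and 8.28 in wild type pools 1, 2 and 3. It fell by 0.49 (SE 0.07, limma adjusted p = 0.00584) and stayed past the threshold in all 14 alternatives. The median difference of the 10 genes was 0.00, beside 0.01 over all genes.

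Mgp was at 10.32, 10.71 and 10.62 in null-labelled pools 1, 2 and 3, against 8.47, 8.82 and 9.01 in wild type pools 1, 2 and 3. Its lowest null-labelled pool stood 1.31 above the highest wild type pool. The means were 10.55 ± 0.21 in the null-labelled and 8.76 ± 0.27 in the wild type pools (SD, n = 3 each), a log2 difference of 1.79 (SE 0.14), or 3.45-fold. Leaving out 1 pool at a time gave 1.64 to 1.91.

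Mgp works only after vitamin K-dependent carboxylation, and 17 other Gla proteins and genes of the vitamin K cycle were measured. None of them passed the limma threshold in either direction, and 4 of the 17 had an unadjusted p under 0.05 (14.1% of all genes). In 5 of the 17 every null-labelled pool lay above every wild type pool, where 11.5% of all genes did so. The median difference was 0.09 against 0.01 over all genes. Vkorc1l1 and Vkorc1, both vitamin K epoxide reductases, had differences of 0.04 (SE 0.07) and 0.16 (SE 0.07, limma adjusted p = 0.357). The other genes of the list named here were picked after their values were seen. Gas6, a ligand of the TAM receptors, differed by 0.34 (SE 0.08, limma adjusted p = 0.0759), the transmembrane Gla protein Prrg1 by 0.30 (SE 0.07, adjusted p = 0.0575) and Pros1, protein S, by 0.29 (SE 0.08, adjusted p = 0.0866). These 3 passed when genes of low level were left out (adjusted p 0.034, 0.0232 and 0.0394), and Gas6 and Prrg1 passed with a variance model that follows intensity. Ggcx, the carboxylase itself, differed by 0.25 (SE 0.07, limma adjusted p = 0.127). Of 10 measured genes that control mineralisation 0 passed the limma threshold and 1 had an unadjusted p under 0.05 (14.1% of all genes), and the phosphate transporters Slc20a1 and Slc20a2 differed by 0.03 each (SE 0.09 and 0.08).

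Slc26a7 was at 9.63, 9.93 and 10.05 in null-labelled pools 1, 2 and 3, against 8.42, 8.40 and 8.46 in wild type pools 1, 2 and 3. Wild type pools lay within 0.06 of each other, and the null-labelled pools spread over 0.42. The means were 9.87 ± 0.21 in the null-labelled and 8.43 ± 0.03 in the wild type pools (SD, n = 3 each), a log2 difference of 1.44 (SE 0.10), or 2.71-fold. Of the 10 other measured Slc26 transporters 0 passed the limma threshold and 1 had an unadjusted p under 0.05 (14.1% of all genes). That gene, named after its value was seen, was Slc26a4 (pendrin), with a difference of 0.27 (SE 0.09, limma adjusted p = 0.22). The differences of the 10 ran from -0.14 to 0.27, and Slc26a2 and Slc26a10, named by their row level, had 0.06 (SE 0.10) and -0.02 (SE 0.07).

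Markers of intercalated cells, where Slc26a7 is known from the adult, did not as a list stand higher in the null-labelled pools. Of 14 measured 0 rose and 1 fell, against 1.64% and 0.767% of all genes, and their median difference was -0.07. The one that fell was Atp6v0a4, a proton pump subunit, at 6.50, 6.93 and 6.55 in null-labelled pools 1, 2 and 3, against 7.47, 7.38 and 7.04 in wild type pools 1, 2 and 3 (difference -0.64, SE 0.14, limma adjusted p = 0.0485). It lost the call without null-labelled pool 1 or 3, without wild type pool 1 or 2, with quantile normalization and over all rows (adjusted p up to 0.205). In 3 of the 14 every null-labelled pool lay below every wild type pool (8.04% of all genes), and in 1 above (11.5%). An unadjusted limma p under 0.05 was found in 4 of the 14 (14.1% of all genes). Mean levels of the 14 ran from 5.21 for Hepacam2 to 7.51 for Slc4a1, most of them below the lowest array median of 6.984. Whether intercalated cells were present at E14.5 was not tested, so the list does not show which cells held the Slc26a7 RNA. The summed level of the 14 on the linear scale was 1144 to 1377 in the null-labelled pools and 1272 to 1367 in the wild type pools. Slc4a1, named after its value was seen, stood at 8.26 in null-labelled pool 3, which had the highest sum. Slc4a1 was at 7.45 or below in every other pool. Null-labelled pool 3 also had the highest sums of liver and adrenal markers, and the source of its Slc4a1 signal was not tested.

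Grin3a was at 7.74, 7.95 and 7.96 in null-labelled pools 1, 2 and 3, against 6.50, 6.55 and 6.45 in wild type pools 1, 2 and 3. Its means were 7.88 ± 0.12 in the null-labelled and 6.50 ± 0.05 in the wild type pools (SD, n = 3 each), a log2 difference of 1.38 (SE 0.08), or 2.60-fold. Of the 5 other measured NMDA receptor subunits 0 passed the limma threshold and 1 had an unadjusted p under 0.05 (14.1% of all genes). That gene, named after its value was seen, was Grin2d (difference 0.29, SE 0.09, limma adjusted p = 0.143). Grin3b, the closest relative of Grin3a, differed by 0.01 (SE 0.08, limma adjusted p = 0.977) and its sign turned with quantile normalization and median centring, while Grin2c differed by -0.01 (SE 0.09).

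Of 10 AMPA, kainate and delta receptor genes 2 rose and 0 fell, against 1.64% and 0.767% of all genes. An unadjusted limma p under 0.05 was found in 3 of the 10 (14.1% of all genes). The AMPA receptor subunit Gria3 was at 9.53, 9.62 and 9.92 in null-labelled pools 1, 2 and 3, against 9.07, 9.10 and 9.05 in wild type pools 1, 2 and 3 (difference 0.61, SE 0.10, limma adjusted p = 0.014). The kainate receptor subunit Grik2 was at 7.35, 7.61 and 7.58 in null-labelled pools 1, 2 and 3, against 7.07, 7.0 and 6.79 in wild type pools 1, 2 and 3 (difference 0.56, SE 0.10, limma adjusted p = 0.0205). Each lost its call in 4 of the 6 fits that left out 1 pool and when every row was tested (adjusted p up to 0.098 for Gria3 and 0.121 for Grik2). Gria2, named after its value was seen, was at 6.33, 7.73 and 7.62 in null-labelled pools 1, 2 and 3, against 5.80, 6.17 and 6.18 in wild type pools 1, 2 and 3. Its difference of 1.18 (SE 0.31) had a limma adjusted p of 0.0921, and of 0.000292 without null-labelled pool 1.

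Nerve markers moved with the pools too. Of 11 measured genes of sympathetic neurons and glia 1 rose and 0 fell, against 1.64% and 0.767% of all genes. The one that rose was the neuronal RNA-binding protein Elavl4 (difference 0.62, SE 0.13, limma adjusted p = 0.0383). Elavl4 lost its call in 5 of the 6 fits that left out 1 pool. An unadjusted limma p under 0.05 was found in 6 of the 11 nerve genes (14.1% of all genes). Their median difference was 0.50, against 0.01 over all genes. The summed level of the 11 was 1393, 4557 and 3149 in null-labelled pools 1, 2 and 3, and 1162 to 1550 in the wild type pools. Gria2 and the nerve sum were both near the wild type pools in null-labelled pool 1 and higher in null-labelled pools 2 and 3. The part of nerve tissue in the glutamate receptor differences was not tested.

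**Figure D2:**
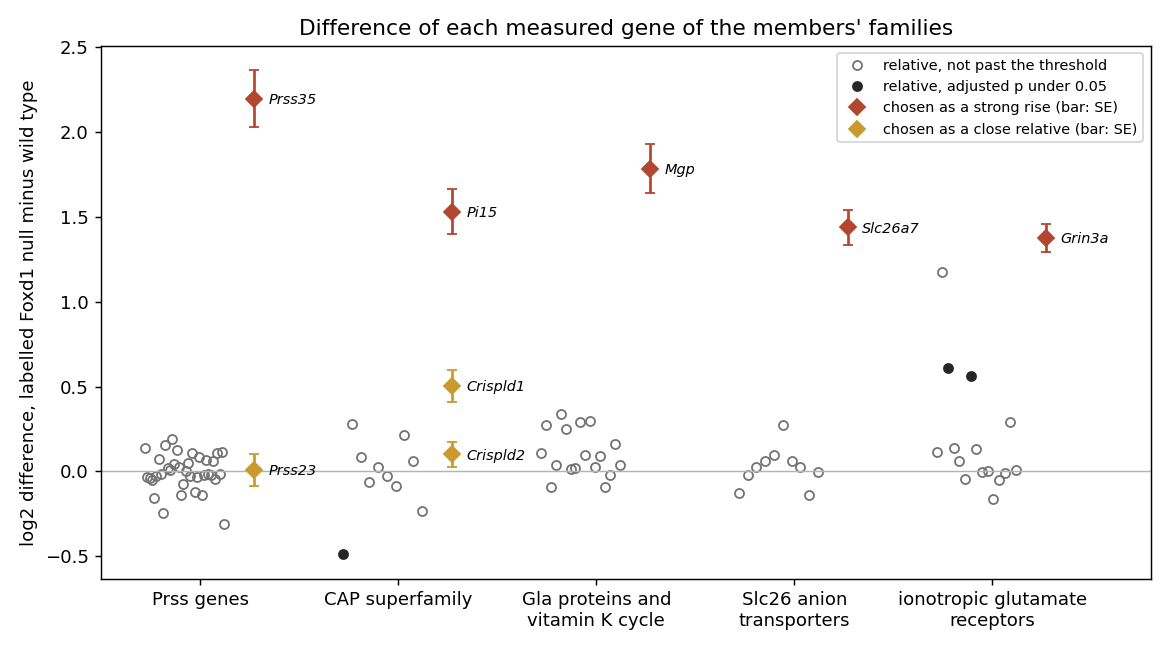
Log2 difference, null-labelled minus wild type (vertical axis), of the 5 genes chosen as strong rises (red diamonds, SE bars), the 3 chosen as close relatives (yellow diamonds, SE bars) and all other measured genes of each family or pathway (circles, filled where the limma adjusted p was under 0.05). The filled circles are Gria3 and Grik2 above 0 and Clec18a below 0, the highest open circle is Gria2 at 1.18, and the 36 other Prss genes lie between -0.31 and 0.19.

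Among themselves the 5 rises differed in how they were spread over the pools. Null-labelled pool 1 was the lowest of its group in all 5, which it was in 63.8% of the 326 genes past the threshold as higher and in 37.7% of all genes. That array also correlated slightly better with the wild type arrays than with its own group (mean r over all rows 0.9906 and 0.9896). Wild type pool 1 was the lowest of its group in Prss35, Pi15 and Mgp, but not in Slc26a7 or Grin3a. With each profile over the 6 pools centred on its mean, Slc26a7 and Grin3a lay closest together, at a root mean square distance of 0.08. Prss35 and Grin3a lay farthest apart of the 10 pairs, at 0.46.

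The genes with the most similar profiles over the 6 pools were named by the same distance, as a description that rests on the shared comparison. For Prss35 they were Sulf1, a heparan sulfate sulfatase (distance 0.22), Mgp (0.27) and the elastic fibre protein Fbln5 (0.38). For Pi15 they were the matricellular protein Thbs2 (0.13) and the small leucine-rich proteoglycans Dcn (0.15) and Lum (0.16). For Mgp they were Sulf1 (0.14), Lum (0.15) and Pi15 (0.16). For Slc26a7 they were the ephrin receptor Epha3 (0.05), smooth muscle actin Acta2 (0.06) and Grin3a (0.08). For Grin3a they were Dcn (0.07), Slc26a7 (0.08) and Acta2 (0.08). Epha3 was at 8.34, 8.62 and 8.74 in null-labelled pools 1, 2 and 3, against 7.19, 7.13 and 7.30 in wild type pools 1, 2 and 3, a difference of 1.35 (SE 0.11). No p-value is given for the genes named in this way, since their likeness to a chosen rise fixes their difference.

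Some markers of the kidney's own stroma and vessels passed the threshold. Of 16 markers of smooth muscle and of the stroma around medulla and ureter, 8 rose and 0 fell, with a median difference of 0.41. Over all genes 1.64% rose and 0.767% fell. The 8 were the actins Acta2 (difference 1.46, SE 0.12) and Actg2 (1.37, SE 0.16), with Tagln, Cnn1, Myh11, Myocd, Myl9 and Tbx18. The 8 not past the threshold were Cldn11 (0.31), Des (0.20), Wnt5a (0.12), Wnt4 (-0.04), Alx1 (-0.09), Smoc2 (-0.09), Penk (-0.25) and Lef1 (-0.33). The list joins smooth muscle and stromal genes, so its counts, median and sum do not speak for each part alone. In 10 of the 16 every null-labelled pool lay above every wild type pool (11.5% of all genes). In 3, Smoc2, Lef1 and Penk, every null-labelled pool lay below every wild type pool (8.04% of all genes). Apart from the actins, the genes of this list were named after their values were seen. The summed level of the 16 was 6763 to 7888 in the null-labelled and 5142 to 5357 in the wild type pools. Of 13 cortical stroma genes 2 rose and 2 fell, with Ntrk3 up by 0.78 (SE 0.11, limma adjusted p = 0.0075) and Aldh1a2, which makes retinoic acid, at -0.77 (SE 0.10, limma adjusted p = 0.00473). Of 12 mural cell genes 2 rose, Rgs5 and Angpt2, and of 14 endothelial genes 4 rose, Clec14a (0.65, SE 0.10) and Pecam1 (0.54, SE 0.10) among them; 0 of either list fell. Of the 6 fits that left out 1 pool, the call was lost in 5 for Pecam1 (adjusted p up to 0.105), in 2 for Clec14a (up to 0.0565) and in 1 for Ntrk3 (0.0505). Over all rows these 3, Rgs5 and Aldh1a2 also lost theirs (up to 0.133). Rgs5 differed by 1.21 (SE 0.14) and Angpt2 by 0.92 (SE 0.10). An unadjusted limma p under 0.05, in either direction, was found in 14.1% of all genes. It was found in 11 of the 16 genes of the first list and in 9 of the 13 cortical stroma genes. The mural list had 6 of 12 and the endothelial list 10 of 14. In 10 of the 14 endothelial genes every null-labelled pool lay above every wild type pool (11.5% of all genes). None of 14 cartilage markers passed the limma threshold, and 0 had an unadjusted p under 0.05 (14.1% of all genes). The part of these cell types in the 5 rises was not tested.

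Markers of tissues next to the kidney differed between single pools. The summed level of 15 skeletal muscle genes was 7193, 6123 and 3973 in null-labelled pools 1, 2 and 3, and 2000 to 4494 in the wild type pools. Of the 15 genes 1 rose and 0 fell, against 1.64% and 0.767% of all genes. The one that rose was the troponin Tnnt3 (difference 1.09, SE 0.23, limma adjusted p = 0.0401). Tnnt3 lost its call in 5 of the 6 fits that left out 1 pool. An unadjusted limma p under 0.05 was found in 9 of the 15 muscle genes (14.1% of all genes). Their median difference was 0.55, against 0.01 over all genes. The summed level of 12 liver genes was 6898 in null-labelled pool 3, and 1098 to 1693 in the other 5 pools. Hnf4a, which the kidney tubule also makes, fell by 0.82 (SE 0.10, limma adjusted p = 0.00327). The summed level of 11 adrenal genes was 5407 in null-labelled pool 3, and 1526 to 2283 in the other 5 pools. Without null-labelled pool 3 the differences of Prss35, Pi15, Mgp, Slc26a7 and Grin3a were 2.00, 1.501, 1.75, 1.35 and 1.34.

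**Figure D3:**
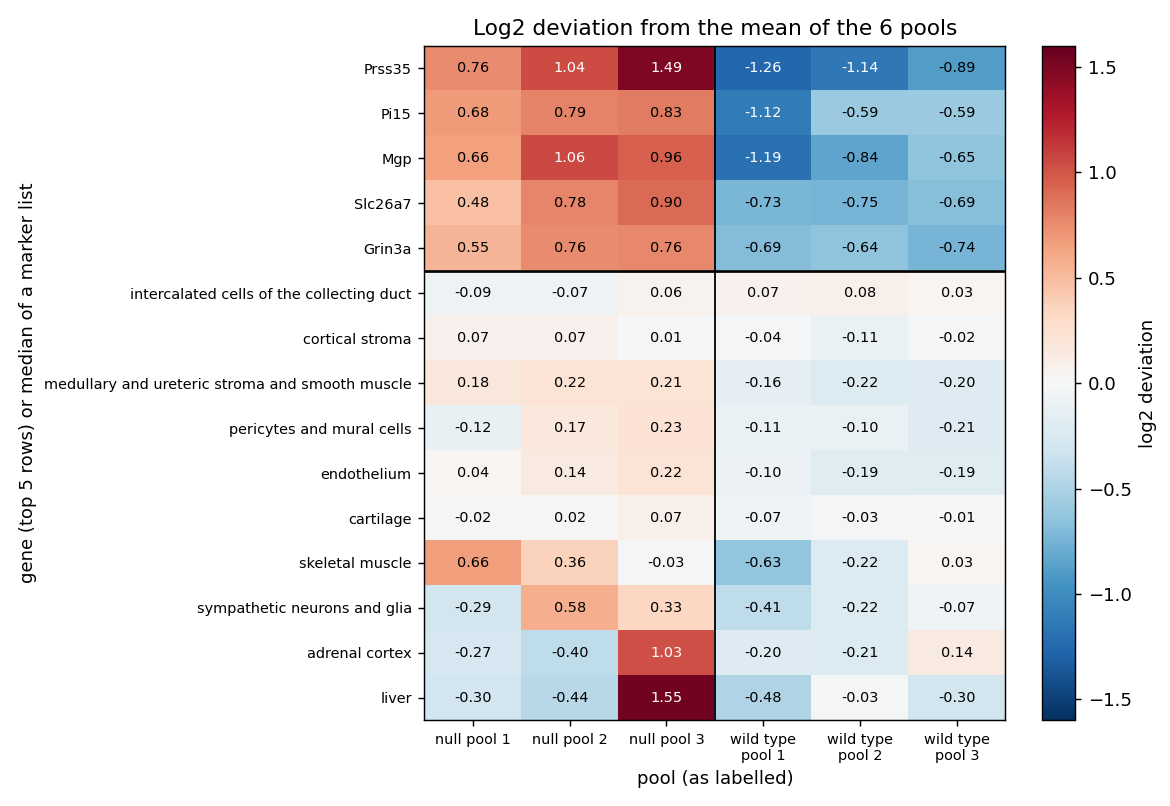
Log2 deviation from the mean of the 6 pools (colour and printed value) of the 5 strong rises, above the black line, and the median deviation of each marker list below it, for the pools labelled Foxd1 null on the left and wild type on the right. The 5 rises are above 0 in all 3 null-labelled pools, while the liver and adrenal lists stand out in null-labelled pool 3 and the nerve list is low in null-labelled pool 1.

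The neighbours of the 8 genes along the chromosome were read in RefSeq order, 2 measured genes on each side, which gave 28 further genes. Of these 2 rose and 0 fell, against 1.64% and 0.767% of all genes. Pi15 and Crispld1 are themselves next to each other among the measured genes of chromosome 1. On the far side of Pi15 lay Gdap1, a mitochondrial fission factor named after its value was seen, at 5.38, 6.37 and 5.85 in null-labelled pools 1, 2 and 3, against 5.17, 5.21 and 5.20 in wild type pools 1, 2 and 3 (difference 0.68, SE 0.20, limma adjusted p = 0.133). On the far side of Crispld1 lay Crisp4, a further CAP gene, with a difference of -0.06 (SE 0.09, limma adjusted p = 0.816).

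Snap91, a clathrin assembly protein of synapses, follows Prss35 on chromosome 9. It was at 8.56, 8.69 and 8.71 in null-labelled pools 1, 2 and 3, against 8.17, 8.27 and 8.29 in wild type pools 1, 2 and 3, and rose by 0.41 (SE 0.08, limma adjusted p = 0.0245). It lost the call in 5 of the 6 fits that left out 1 pool, with adjusted p up to 0.132. Me1, malic enzyme, lies 2 measured genes before Prss35 and was named after its value was seen. It was at 8.69, 8.80 and 10.39 in null-labelled pools 1, 2 and 3, against 8.12, 8.11 and 8.65 in wild type pools 1, 2 and 3, with a difference of 1.00 (SE 0.38, limma adjusted p = 0.258) and its highest level in the pool with the high liver and adrenal sums.

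Ppp3r2, a calcineurin B subunit known from testis, lies within the RefSeq span of Grin3a on chromosome 4. It was at 5.25, 5.43 and 5.53 in null-labelled pools 1, 2 and 3, against 4.89, 4.74 and 4.79 in wild type pools 1, 2 and 3, and rose by 0.59 (SE 0.09, limma adjusted p = 0.00876). The call was lost when null-labelled pool 2 was left out (adjusted p = 0.0505) and when wild type pool 2 was (0.0507), and over all rows (0.0761). Ppp3r2 had means of 5.40 in the null-labelled and 4.81 in the wild type pools, both below the lowest array median of 6.984. It had no value under the filter on low levels. Whether its probes also bind RNA of Grin3a was not tested. The 4 neighbours of Mgp differed by 0.07 to 0.25 and the 4 of Slc26a7 by -0.12 to 0.41, none past the threshold.

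**Figure D4:**
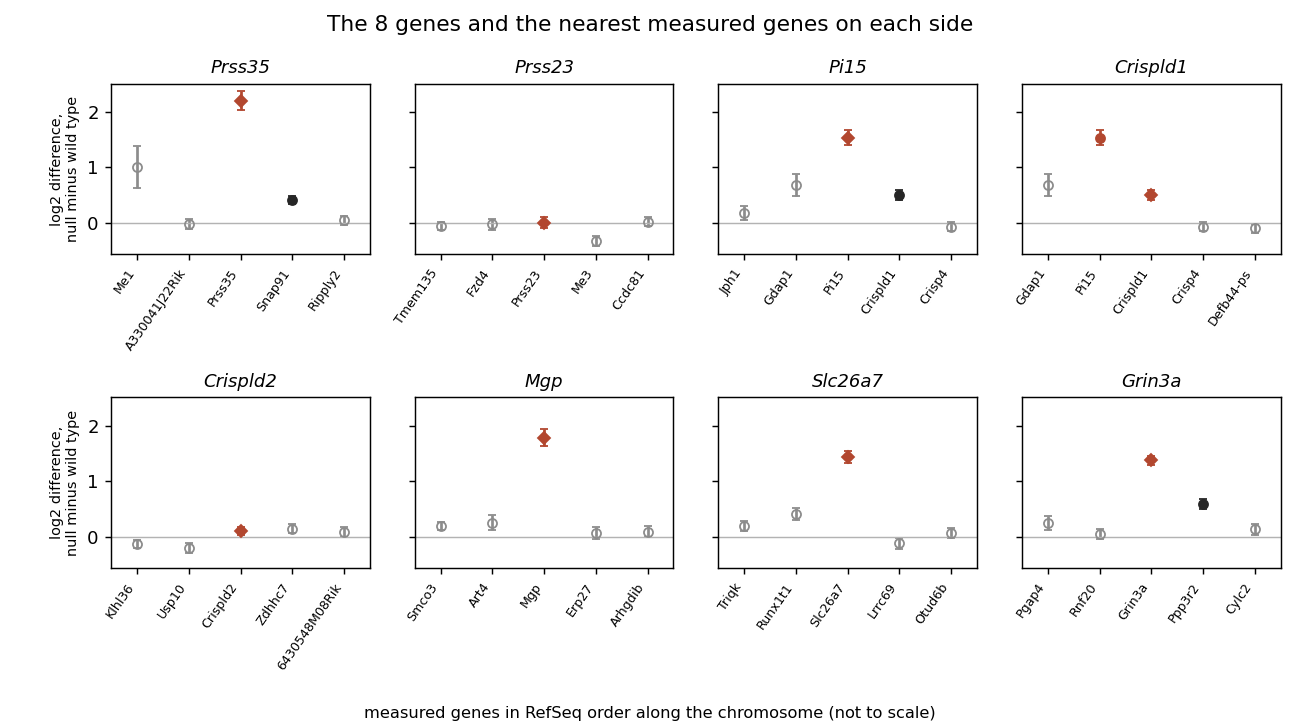
Log2 difference, null-labelled minus wild type (vertical axis, bars are SE), of each of the 8 genes (diamonds) and of the 2 nearest measured genes on each side in RefSeq order (circles, filled where the limma adjusted p was under 0.05, red where the neighbour is itself a strong rise). Snap91 beside Prss35, Ppp3r2 within Grin3a, Crispld1 beside Pi15 and, in red, Pi15 beside Crispld1 are the filled neighbours.

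The authors' deposited table of 488 probe sets had a row for 5 of the 8 genes, and Prss35 was not among the 5. In the authors' deposited table the fold, null over wild type, was 3.87 for Mgp, 2.58 for Slc26a7, 2.40 for Pi15, 2.32 for Grin3a and 1.5 for Crispld1. The folds of group medians from the per-pool values were 3.48, 2.84, 2.61, 2.72 and 1.48 in that order, so Mgp and Crispld1 were larger and Slc26a7, Pi15 and Grin3a smaller in the authors' deposited table. The authors' deposited table also gives each group a p-value for expression. For Pi15 it was 0.0191 in the null-labelled pools and 0.19 in the wild type pools, and for Grin3a 0.0365 and 0.282 in that order. Neither gene was therefore called expressed in wild type kidneys at 0.05, and their folds start near background and are no exact sizes. Mgp, Slc26a7 and Crispld1 had such p-values of 0.032 or below in both groups of the authors' deposited table.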

How the data were processed

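Expression was measured on Affymetrix gene arrays in 6 pools. Each labelling reaction started from 50 ng of RNA, per the labels' protocols. The authors deposited 1 column of log2 values per pool; the summarising program is unstated in the labels and headers. The log2 scale was read from the values: over 488 shared probe sets, median differences had a slope of 1.501 on those of the authors' deposited table in natural log units, where 1 over ln 2 is 1.443. That deposited table also holds a signed linear fold (a score that is negative for falls, equal to the ratio of medians to within 0.0049 in natural log units) and p-values from a test the sources used here do not name.

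Of 35556 rows, 21789 had 1 gene symbol in the platform annotation, 1621 several and 12146 none. Per gene the row with the highest mean over the 6 pools was kept, which gave 19938 genes, with no filter. Linear models with genotype as the only term (lmFit and eBayes of limma 3.58.1, R 4.3.3) gave two-sided p-values, with Benjamini-Hochberg adjustment across every gene tested. An exact permutation test of 3 against 3 cannot go below 0.1, and the median SE of 0.086 reflects the number of arrays. The fit was tested on simulated data with independent normal noise and no shared litters, which checks the code and not the independence of these pools. Neighbours came from RefSeq order in GRCm38.p6, where 19916 of the genes tested were placed; the build of the authors' positions is not stated, so those were not used. Promoter windows, from RefSeq, existed for 3 of the 8 genes in the table used. Tables were joined with pandas 2.3.3 and numpy 2.4.6 under Python 3.11.15, and plots drawn with matplotlib 3.10.9.

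The members and gene lists were chosen with earlier results of these data known. Named by rule were the 8 genes and Foxd1, up to 4 genes per family list past the threshold (otherwise the 2 with the highest level), up to 2 per marker list, neighbours past the threshold and the 3 nearest profiles. The alternatives were leaving out each pool, the replicate number as a block, quantile normalization, median centring, an intensity trend with robust variance, a filter at the median level, the mean of a gene's rows, all rows and array weights.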

Additional observations from a re-analysis of the deposited data

How the results depend on the processing

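The differences of Prss35, Pi15, Mgp, Slc26a7 and Grin3a kept their sign and moved by less than the larger of the 2 group SDs in every alternative run, though some moved by more than the smaller; Pi15 had no value under the filter on low levels. Leaving out 1 pool gave 127 to 572 genes higher and 64 to 171 lower, against 326 and 153 with all pools, and testing all rows gave 71 and 37. Glutamate receptor genes (AMPA, kainate and delta) past the threshold as higher numbered 0 to 3 when 1 pool was left out and 0 over all rows, and neighbours 0 to 3 and 0. Gla and vitamin K genes numbered 2 as higher with the intensity trend and 3 with the filter. The Crispld1 difference was 0.44 to 0.59 without 1 pool and 0.50 over all rows, with adjusted p up to 0.13. The Prss23 difference was -0.0808 to 0.0721 without 1 pool, -0.0241 with quantile normalization, -0.0231 with median centring and -0.0092 with array weights. Other small differences that changed sign were those of Grin3b (-0.0309 to 0.0481 without 1 pool, -0.0236 with quantile normalization and -0.0225 with median centring), Grin2c (-0.0873 to 0.0579 without 1 pool), Prss27 (-0.0708 to 0.0365), Slc20a1 (-0.0376 to 0.1036, and -0.0008 with median centring), Slc20a2 (-0.0205 to 0.0662, and -0.0055 with median centring), Slc26a10 (-0.0513 to 0.0203), Slc26a2 (-0.0006 to 0.1596) and Vkorc1l1 (-0.0027 to 0.0659). The cause was not tested for any of these.

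With the replicate number as a block, 381 genes were higher and 158 lower, 3 glutamate receptor genes (Gria2 added) and 3 neighbours (Me1 added) rose, and Crispld1 had a limma adjusted p of 0.0238. Deviations of same-numbered pools correlated at 0.125, 0.0677 and 0.0533 over genes. Not every pair passed 0.1, although every pool correlated best with its own number, which is a hint from the data and not the design. The labels state no pairing, so whether the numbers pair the pools was not settled.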
